A study of Homo sapiens with 40 samples.

Results

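RKO, an established human colorectal carcinoma cell line, was treated with small interfering RNAs (siRNAs) against IGF2BP2, and the mRNA levels of all genes were compared with those after a non-targeting siRNA. The members are the 8 libraries of this experiment, of 40 in the series. They are 4 libraries of cells given the pool of siRNAs against IGF2BP2 (siIGF2BP2) and 4 of cells given the non-targeting siRNA (siControl), chosen by the group and replicate in the labels. All 8 come from the same derived line (sgIGF2BP2), which carries a doxycycline-inducible Cas9, GFP, and a pair of guide RNAs against IGF2BP2 expressed from U6 promoters together with BFP, and which was sorted for BFP as a population. The labels list no doxycycline for these libraries, so the guides were present in siControl and siIGF2BP2 cells alike without induced Cas9. Both groups were transfected with siRNA at 75 nM for 48 hours and received 250 µM of the nucleoside s4U for 2 hours, as in SLAMseq, in which alkylated s4U marks newly made RNA. Each library is poly(A) RNA of 1 well. The deposited values used here are counts over all RNA of a gene, new and old together.

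For comparison, 3 other experiments of the series were used, none of which shares a library with this one. In the same sgIGF2BP2 line, IGF2BP2 was depleted by inducing Cas9 with 250 ng/mL doxycycline (Dox) for 72 hours, against the solvent DMSO (4 and 4 libraries). A line with guides against AAVS1 (sgAAVS1), which the labels describe as a non-coding locus, received the same Dox or DMSO (4 and 4 libraries). In a line with guides against IGF2BP3 (sgIGF2BP3), a pool of siRNAs against IGF2BP3 (siIGF2BP3) was compared with the same non-targeting siRNA at the same dose and time (4 and 4 libraries). Dox in sgIGF2BP3 cells was not used here.

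IGF2BP2 belongs to a family of cytoplasmic RNA-binding proteins that attach to many mRNAs through KH domains and are known to protect bound mRNAs from decay and to affect their translation and localisation. They are counted among the readers of N6-methyladenosine (m6A), a methyl mark on mRNA, and were named for binding the mRNA of insulin-like growth factor 2. IGF2BP1 and IGF2BP3 are mostly silent in adult tissue and return in tumours, whereas IGF2BP2 is also made in adult tissue. An siRNA guides the Argonaute complex to mRNAs that pair with it, and a pool is a mixture of siRNAs against the same mRNA.

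The guides of the line are shown because all 8 libraries carry them and because the same line, once Cas9 was induced, gave the Dox comparison below. Both are printed 5′ to 3′ in lower case, as the labels give them.
First guide: atatgtgacgttgacaacgg
Second guide: gtgcgctgaggttcaaccct
Matched to the transcripts of GENCODE release 29 (GRCh38), the first guide lies at chr3:185692722-185692741 and the second at chr3:185672630-185672649. Each lies on the plus strand, each is followed by an NGG motif as Cas9 needs, and IGF2BP2 itself is on the minus strand. The first was found in 6 IGF2BP2 transcripts, in coding exon sequence in 4 of them, and the second in 3 transcripts, in coding exon sequence in all 3. No other gene's transcript matched either guide in full.

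Total counts ranged from 13357938 to 19558224 per siControl library and from 11211623 to 15715711 per siIGF2BP2 library, with 12543 to 12874 genes detected in each. Levels are given as CPM, a library's counts scaled to a common total, and changes as log2 fold changes, siIGF2BP2 against siControl. A gene is called when edgeR's quasi-likelihood test gave a Benjamini-Hochberg (BH) adjusted p under 0.05 over the 11428 genes tested, and "rose" and "fell" below refer to called genes. The replicates are wells of the same line, so p-values measure the spread between wells, which may be technical. The library siIGF2BP2 replicate 3 stood apart from its group. The chi-square statistic per gene of its counts against the other 3 siIGF2BP2 libraries was 5.66 to 6.45, against 1.49 to 1.84 among those 3 and 1.97 to 3.17 among siControl libraries. Its deviation from the group mean ran with transcript length (r across genes −0.54, with shorter transcripts higher), where the other 3 had r of 0.20 to 0.33. Without that library 3868 genes were called, of which 3500 were among the 4202 called with it. Among the libraries used for comparison, sgIGF2BP2 Dox replicate 2 stood further apart, with 11.84 to 16.65 per gene against the other 3 and 2.09 to 2.81 among those 3, and with 5.86% of its counts from mitochondrial genes, against 8.38% to 9.12%. Dox calls in sgIGF2BP2 cells were therefore also made without it, for single genes, for lists and for the overlap of all calls. Of the colon epithelial markers, 4 of 13 passed the filter on low counts (KRT8, KRT18, CDX2 and EPCAM), and 5 had no count in the 8 libraries. No fibroblast or endothelial marker passed, and 1 of 8 blood and immune markers did.

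The first question was how far the pool lowered its target. IGF2BP2 (chr3:185643739-185825056, minus strand) was measured at 103, 109, 113 and 109 CPM in siControl replicates 1 to 4 and at 31.7, 29.6, 29.2 and 30.4 CPM in siIGF2BP2 replicates 1 to 4. All 4 siIGF2BP2 libraries lay far below all 4 siControl libraries, and the 4 within each group were close together. The log2 fold change was −1.84 (SE 0.050, edgeR quasi-likelihood test, BH adjusted p = 5.81e-42), and 27.9% of the control level remained. This fall was larger than the one after Dox by −0.50 on the log2 scale (edgeR adjusted p of the difference = 1.13e-07), and after Dox in sgAAVS1 cells IGF2BP2 was not called (0.10, edgeR adjusted p = 0.131). The control levels differed, with a mean of 108 CPM in siControl and 85.3 CPM in DMSO libraries of the line. The levels reached overlapped, at 29.2 to 31.7 CPM after siIGF2BP2 and 29.5 to 38.0 CPM after Dox. These are mRNA levels, and mRNA left after Cas9 induction may come from a cut gene. They therefore do not rank siRNA and Dox by loss of IGF2BP2 protein, which was not measured here. Its relative IGF2BP3 was at 173, 171, 185 and 170 CPM in siControl and at 176, 169, 163 and 172 CPM in siIGF2BP2 libraries. These groups overlapped, and IGF2BP3 was not called (−0.04 on the log2 scale, SE 0.040, edgeR adjusted p = 0.456). After Dox in sgIGF2BP2 cells IGF2BP3 was lower (−0.25, edgeR adjusted p = 2.93e-06), also without Dox replicate 2 (−0.23, edgeR adjusted p = 5.87e-05). After Dox in sgAAVS1 cells it was not called. IGF2BP1 did not pass the filter on low counts. Around IGF2BP2 on chromosome 3, 36 other genes within 2 Mb were tested. Of these, 3 rose (8.33%) and 8 fell (22.2%), where 18.4% of all genes tested were called in each direction, and the median log2 fold change was −0.05. Among the nearest, MAP3K13, a kinase upstream of JNK (−0.33), and SENP2, a SUMO protease (−0.20), fell, while TRA2B, a splicing factor, was not called (−0.01, edgeR adjusted p = 0.833).

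**Figure D1:**
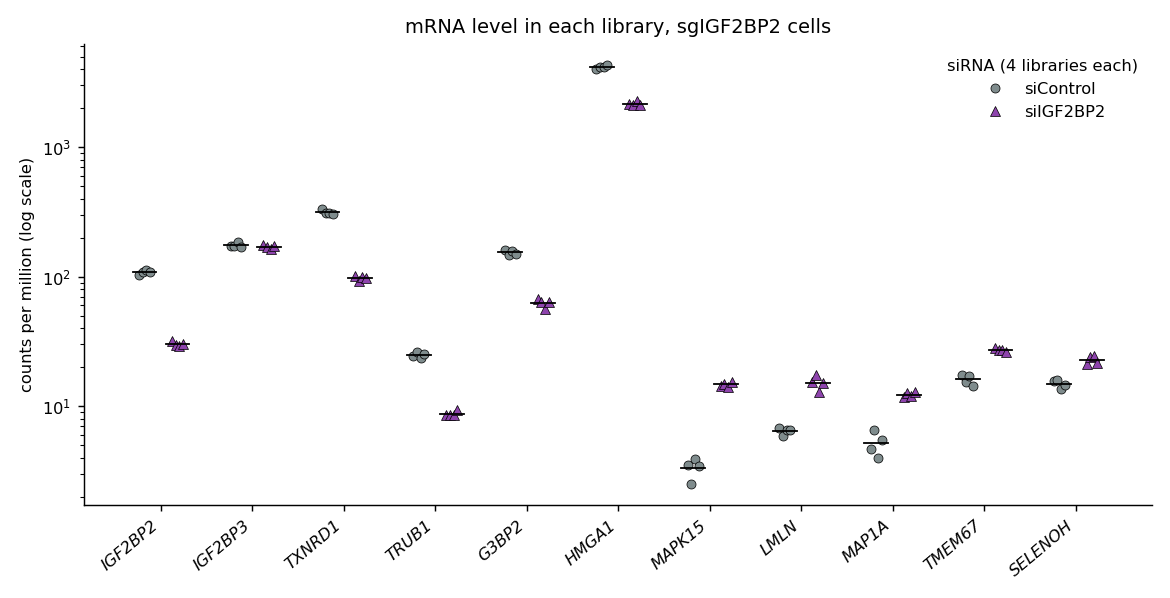
Level of 11 genes in each of the 8 libraries, in CPM on a log scale; circles are siControl and triangles siIGF2BP2 libraries, and each bar is the mean of 4. IGF2BP2, TXNRD1, TRUB1, G3BP2 and HMGA1 lie lower and MAPK15, LMLN, MAP1A, TMEM67 and SELENOH higher in all 4 siIGF2BP2 libraries, and the IGF2BP3 groups overlap.

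Many genes moved, most of them by little. Of the 11428 genes tested, 4202 were called (36.8%), with 2101 higher and 2101 lower (18.4% each). This split depends on the scaling: with upper-quartile factors in place of the trimmed mean of M-values, 2583 were higher and 1711 lower. The median absolute log2 fold change of the called genes was 0.24. A change of at least 1.2-fold was found for 1798 called genes, at least 1.5-fold for 322, at least 2-fold for 76 (0.665% of those tested) and at least 3-fold for 10. The 2-fold set held 47 genes that rose and 29 that fell. In 3499 genes (30.6%) the 4 siIGF2BP2 libraries did not overlap the 4 siControl libraries. The siIGF2BP3 pool gave 267 calls (2.34%), of which 107 were rises (0.936%) and 160 falls (1.4%), and after Dox there were 2326 in sgIGF2BP2 cells (20.4%) and 1820 in sgAAVS1 cells (15.9%). Between those Dox effects 797 genes differed (6.97%), 458 of them with a higher (4.01%) and 339 with a lower value in sgIGF2BP2 cells (2.97%), and 13 differed at least 2-fold (0.114%). The share called grew with level, from 17.8% in the lowest of 5 equal classes by level to 48.9% in the highest.

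The 15 largest falls, by the rule that the gene be called, well expressed and separated between the groups, included IGF2BP2 itself. TXNRD1 (chr12:104215779-104350305), the cytosolic thioredoxin reductase and a selenoprotein, stood at 333, 310, 312 and 305 CPM in siControl and at 101, 92.4, 99.8 and 98.3 CPM in siIGF2BP2 libraries. The groups were far apart and each was narrow, so 31.0% of its control level remained, slightly more than of IGF2BP2 (log2 fold change −1.69, SE 0.035, edgeR adjusted p = 4.45e-49). TRUB1 (chr10:114938193-114977676), a pseudouridine synthase that modifies tRNA and mRNA, went from 24.4, 26.2, 23.4 and 25.3 CPM to 8.57, 8.62, 8.55 and 9.35 CPM. It fell by 1.49 on the log2 scale (SE 0.088, edgeR adjusted p = 3.91e-23), again with no overlap.

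ATP7B, the copper-transporting ATPase mutated in Wilson disease, fell from 13.9 ± 0.593 to 5.56 ± 0.295 CPM (SD, n = 4 each; log2 fold change −1.33). THOC7, a subunit of the THO complex of mRNA export, was at 30.1 ± 1.18 CPM in siControl and at 9.70, 10.3, 12.6 and 14.7 CPM in siIGF2BP2 libraries (−1.32). Its siIGF2BP2 libraries were less alike than those of TXNRD1 but all lay below siControl. PIGP, which takes part in making GPI anchors, fell by 1.31. G3BP2 (chr4:75642782-75724525), a core protein of stress granules, was at 154 ± 6.30 CPM in siControl and at 62.5 ± 4.71 CPM in siIGF2BP2 libraries (−1.30, SE 0.044; adjusted p by edgeR's test 2.86e-36). SRPX (−1.22), a secreted sushi-repeat protein, and DDAH1 (−1.20), which breaks down an inhibitor of nitric oxide synthase, were also more than 2-fold lower. RALA, a RAS-like GTPase, was at 39.6 to 40.7 CPM in siControl and at 16.2 to 19.5 CPM in siIGF2BP2 libraries (−1.18). IER3 (−1.17), an immediate early gene, and DYNLT3 (−1.14), a dynein light chain, followed. MAP1LC3C, a homologue of the autophagosome protein LC3, fell from 441 ± 24.7 to 202 ± 10.8 CPM (−1.13). INSIG1, which holds the cholesterol-sensing SREBP complex in the endoplasmic reticulum, was at 52.1 to 55.8 CPM in siControl and within 24.6 to 24.9 CPM in siIGF2BP2 libraries (−1.11). ECT2, an activator of RhoA needed for cytokinesis, fell by the same 1.11.

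Of the 14 largest falls besides IGF2BP2, 2 were also called lower after Dox in sgIGF2BP2 cells (MAP1LC3C and ECT2; 14.3%, where 10.4% of all genes were lower). In sgAAVS1 cells 2 were lower (TXNRD1 and MAP1LC3C; 14.3%, where 8.68% of all genes were lower) and SRPX was higher (0.19, edgeR adjusted p = 0.0428). After siIGF2BP3 there were 2 (MAP1LC3C and INSIG1; 14.3%, where 1.4% of all genes were lower). TXNRD1 had a log2 fold change of −0.08 after Dox in sgIGF2BP2 cells (edgeR adjusted p = 0.0541), −0.11 after Dox in sgAAVS1 cells (edgeR adjusted p = 0.0103) and −0.02 after siIGF2BP3 (edgeR adjusted p = 0.830). The difference between the siIGF2BP2 and the Dox effect was itself past the threshold for all 14 genes, as was the difference from siIGF2BP3. These genes were picked by their siIGF2BP2 effect, which is part of both differences, so this was largely built in. For TXNRD1 these differences were −1.61 (SE 0.047, edgeR adjusted p = 1.86e-39) and −1.67 (SE 0.048, edgeR adjusted p = 1.40e-40). Over all differences between effects, 2979 genes were called for siIGF2BP2 minus Dox (26.1%) and 2137 for siIGF2BP2 minus siIGF2BP3 (18.7%). The latter were 1008 higher (8.82%) and 1129 lower (9.88%), and 57 of them differed at least 2-fold (0.499%). The Dox effect has DMSO as its control and includes any effect of inducing Cas9, and no siRNA was present there. In the difference from Dox, way of depletion, siRNA pool and time cannot be told apart. In the difference from siIGF2BP3, target gene, siRNA pool and line cannot be told apart.

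Of the 15 largest rises, 14 lay below the median level of all genes tested (32.1 CPM), as did 8 of the 15 largest falls. MAPK15 (ERK8), an atypical MAP kinase known to promote ciliogenesis, was at 3.52, 2.49, 3.93 and 3.47 CPM in siControl and at 14.4, 14.9, 14.1 and 15.5 CPM in siIGF2BP2 libraries. All 4 siIGF2BP2 libraries lay well above all siControl libraries, and no other gene named by rule rose as far (log2 fold change 2.13, SE 0.133, edgeR adjusted p = 5.69e-22). SLC22A18, an organic cation transporter gene in an imprinted cluster, rose from 3.43 ± 0.541 to 8.45 ± 0.627 CPM (1.30). MAP1A, a microtubule-associated protein best known from neurons, rose from 5.17 ± 1.07 to 12.3 ± 0.558 CPM (1.25). LMLN, a leishmanolysin-like metallopeptidase, went from 6.73, 5.84, 6.56 and 6.56 CPM to 15.4, 17.5, 12.9 and 15.1 CPM (1.24, SE 0.101, edgeR adjusted p = 1.47e-16). DENND6B (1.19), an exchange factor for RAB proteins, SAMD15 (1.17), RAB26 (from 7.11 ± 1.27 to 15.2 ± 1.22 CPM), a GTPase of secretory vesicles, IFI27L1 (1.03) and TMEM198 (1.02) rose more than 2-fold.

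CCDC40, which builds the dynein-regulating ruler of motile cilia, was at 4.44, 4.33, 3.80 and 4.29 CPM in siControl and at 8.23, 7.78, 7.66 and 10.0 CPM in siIGF2BP2 libraries (log2 fold change 1.00). TMEM107, a protein of the ciliary transition zone, was at 9.74, 12.1, 11.2 and 9.12 CPM in siControl and at 20.1, 20.2, 18.7 and 19.3 CPM in siIGF2BP2 libraries (0.89). CTXN1 (0.89), CFAP69 (0.85), a cilia- and flagella-associated protein, and ATP8B3 (0.85) were also among the 15. Of the 15 rises, CFAP69 was also called higher after Dox in sgIGF2BP2 cells (6.67%, where 10.0% of all genes were higher), and SLC22A18 was in sgAAVS1 cells (6.67%, where 7.25% were). CTXN1, LMLN and TMEM198 were higher after siIGF2BP3 (20%, where 0.936% of all genes were). The difference between effects was called for 14 of the 15 against Dox, with CFAP69 the exception, and for 14 of the 15 against siIGF2BP3, with TMEM198 the exception. As with the falls, the genes were picked by an effect that is part of these differences.

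**Figure D2:**
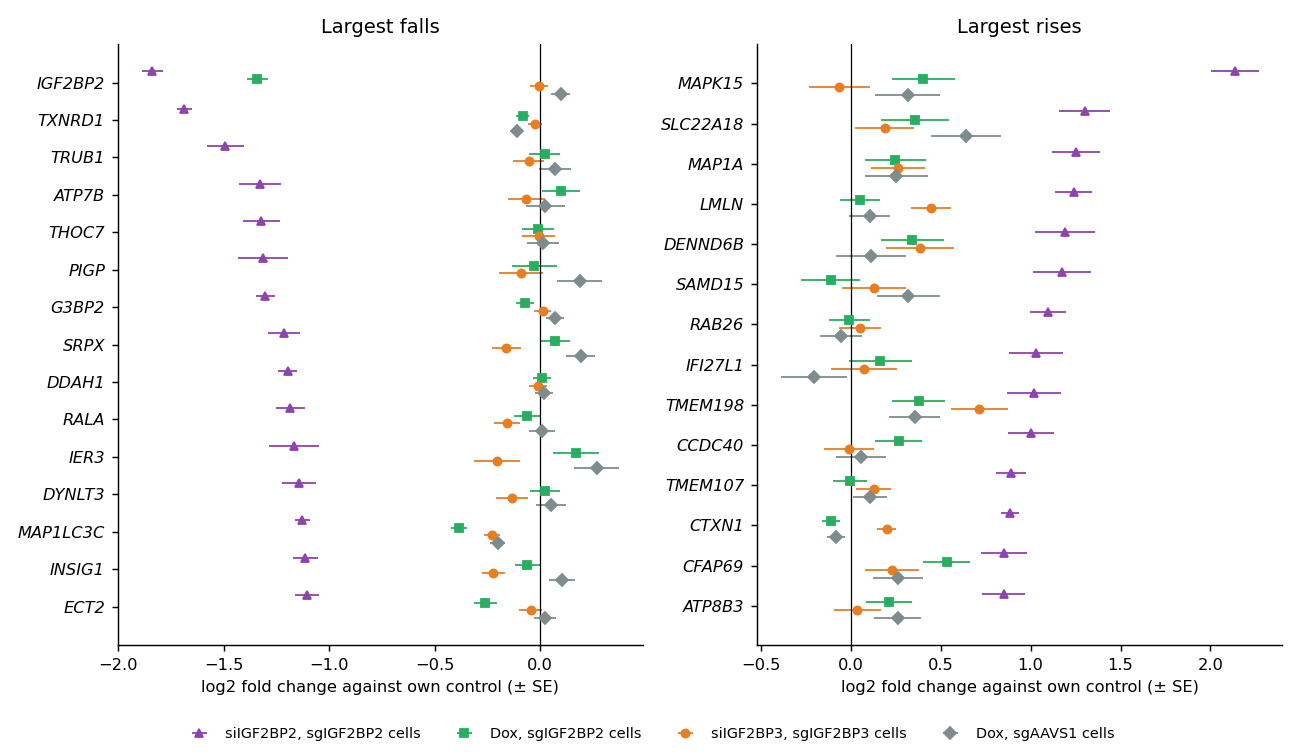
Log2 fold change with its SE for the 15 largest falls (left) and 14 of the 15 largest rises (right) after siIGF2BP2 (triangles), after Dox in sgIGF2BP2 cells (squares) and sgAAVS1 cells (diamonds) and after siIGF2BP3 (circles), each against its own controls. Apart from IGF2BP2, the squares, diamonds and circles of the falls lie between −0.38 and 0.27, while the triangles lie at or below −1.11.

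Cilium genes rose more often than they fell. Primary cilia are built by intraflagellar transport and the BBSome, and most dividing cell lines express these parts at low level. Of 40 cilium genes, among them genes of the transition zone, the BBSome, intraflagellar transport and their motors, 39 were tested. The list was written with earlier results of these data known, and it includes the kinase MAPK15, the largest rise named above. Of these 39 genes 22 rose (56.4%), MAPK15 among them, and 3 fell (7.69%), beside 18.4% of all genes in each direction. The list had a median log2 fold change of 0.23, beside 0.01 over all genes tested. Their summed level was 743 to 754 CPM in siControl and 847 to 861 CPM in siIGF2BP2 libraries, without overlap. TMEM67, the meckelin of the transition zone, went from 17.5, 15.5, 17.1 and 14.4 CPM to a range of 26.4 to 28.0 CPM (0.74, SE 0.080, edgeR adjusted p = 6.03e-12). BBS12, a chaperonin that assembles the BBSome (0.75), and IFT88, a core intraflagellar transport protein (0.55), also rose. The kinesin-2 motors KIF3A (−0.30) and KIF3B (−0.16) were among the 3 that fell. Without siIGF2BP2 replicate 3 the counts were 20 and 3. They were 17 and 3 without siControl replicate 1, and 23 and 3 with upper-quartile factors. After Dox 2 of the 39 were called higher and none lower in sgIGF2BP2 cells, and 1 and none in sgAAVS1 cells. After siIGF2BP3 none was called, where 2.34% of all genes were. After Dox, 10.0% of all genes were higher and 10.4% lower in sgIGF2BP2 cells, and 7.25% and 8.68% in sgAAVS1 cells. These shares, and the 18.4% in each direction after siIGF2BP2, stand beside all list counts below.

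The reported client mRNAs of the IGF2BP family fell more often than they rose. These are oncogenic and metabolic transcripts described in the literature as bound and stabilised by 1 or more of the 3 proteins, and the list was written from general knowledge, with earlier results of these data known. Of 31, 28 were tested, with 16 lower (57.1%) and 5 higher (17.9%, near the 18.4% of all genes), a median of −0.15, and a summed level of 14600 to 15110 CPM in siControl against 12080 to 12330 CPM in siIGF2BP2 libraries. HMGA1, a chromatin architectural protein, makes up much of that sum and most of its drop. It was at 4000, 4170, 4150 and 4310 CPM in siControl and at 2140, 2100, 2290 and 2110 CPM in siIGF2BP2 libraries (log2 fold change −0.95, SE 0.036, edgeR adjusted p = 1.20e-33). CCND1, the G1 cyclin D1, fell from 240 ± 12.2 to 137 ± 3.87 CPM (−0.80). MYC fell from 384 ± 17.9 to 271 ± 9.53 CPM (−0.50), and CDK6 (−0.48) and HK2 (−0.46) fell too. CDK6 had a mean of 80.0 CPM in siControl and 57.5 CPM after siIGF2BP2, near the 55.9 CPM of the line's DMSO libraries. HMGA1, CCND1, MYC and HK2 lay after siIGF2BP2 below their DMSO means of 4158, 193, 362 and 148 CPM. The siControl libraries were not tested against DMSO here. E2F1 (0.36), TK1 (0.23) and FOXM1 (0.19), all with roles in the cell cycle, rose.

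Client mRNAs did not follow 1 pattern across the experiments. HMGA1 fell after Dox in sgIGF2BP2 cells (−0.30, edgeR adjusted p = 8.36e-10) and also in sgAAVS1 cells (−0.36, edgeR adjusted p = 4.25e-12). MYC was higher after Dox in sgIGF2BP2 cells (0.19, edgeR adjusted p = 0.000562) and lower in sgAAVS1 cells (−0.41, edgeR adjusted p = 1.70e-11). CCND1 was higher in the first (0.14, edgeR adjusted p = 0.00119) and not called in the second (0.08, edgeR adjusted p = 0.0916). After Dox 8 of the 28 were called lower and 4 higher in sgIGF2BP2 cells, and 9 lower and 1 higher in sgAAVS1 cells. After siIGF2BP3 none was called lower and 1 higher. Without siIGF2BP2 replicate 3 the siIGF2BP2 counts were 15 lower and 6 higher. They were 12 and 5 with upper-quartile factors, 13 and 5 without siControl replicate 1, and 14 and 5 with a block for the replicate number. With an offset for GC content and length they were 16 and 6.

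Of 25 RNA-binding partners of the IGF2BP proteins and stress-granule proteins, 11 fell (44.0%, where 18.4% of all genes did), none rose and 14 were not called, with a median of −0.06. With an offset for GC content and length 10 fell and 2 rose. Besides G3BP2, the RNA stabiliser ELAVL1 (HuR) fell from 226 ± 3.13 to 190 ± 2.60 CPM (−0.25) and UBAP2L, which nucleates stress granules, by 0.23. The summed level of the list was 10580 to 11000 CPM in siControl and 10240 to 10430 CPM in siIGF2BP2 libraries. After Dox 12 of these 25 were lower and 2 higher in sgIGF2BP2 cells, 7 and 2 without Dox replicate 2, and 6 lower and 1 higher in sgAAVS1 cells. Insulin and mTOR signalling genes had 3 of 36 higher and 9 lower (33.3% called, beside 36.8% of all genes), with 5 higher and 7 lower without siIGF2BP2 replicate 3, 1 higher without replicate 4, 5 higher and 13 lower with the offset and 6 higher and 7 lower with upper-quartile factors. They included RPS6KB1, the S6 kinase, at 36.8, 31.5, 33.9 and 29.3 CPM against 23.8, 20.3, 20.9 and 24.3 CPM (−0.56), PIK3CA (−0.42), INSR (−0.31) and MLST8 (0.22).

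TXNRD1 fell further than any other called gene of its pathway. The thioredoxin and glutaredoxin systems keep protein thiols reduced, and TXNRD1 recharges thioredoxin with NADPH. Of 20 genes tested, 6 fell and 3 rose (45% called, beside 36.8% of all genes), with a median of −0.07. TXN, thioredoxin itself, was at 437 to 461 CPM in siControl and at 363, 375, 434 and 376 CPM in siIGF2BP2 libraries, where replicate 3 lay just below siControl (−0.20). The peroxiredoxins PRDX6 (−0.43) and PRDX3 (−0.36) and the glutathione reductase GSR (−0.18) fell. PRDX5 (0.30) and the mitochondrial reductase TXNRD2 (0.25) rose, and TXNRD3 was not called (0.06, edgeR adjusted p = 0.708). The targets of NRF2, the transcription factor of the antioxidant response, went both ways, with 5 of 27 higher and 8 lower (48.1% called) and a median of −0.01, with 3 higher and 9 lower without siIGF2BP2 replicate 3, and with 3 higher without siControl replicate 2. Among them HMOX1, heme oxygenase 1 (0.30), and BLVRB, biliverdin reductase B (0.29), rose, and TKT, transketolase (−0.26), fell.

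Selenoproteins carry selenocysteine, which is inserted at UGA codons with the help of a hairpin in the 3′ untranslated region (3′ UTR). Of 18 tested, 7 rose and 5 fell, together 66.7% against 36.8% of all genes. SELENOH, a nucleolar selenoprotein, went from 15.7, 15.9, 13.5 and 14.7 CPM to 21.2, 23.9, 24.4 and 21.5 CPM (0.60, SE 0.086, edgeR adjusted p = 3.52e-08). SELENON (0.40) and the glutathione peroxidases GPX1 (0.38) and GPX4 (0.36) rose, the latter protecting membranes from lipid peroxidation. MSRB1, a methionine sulfoxide reductase (−0.50), and SELENOT (−0.34) fell along with TXNRD1. Of the 10 factors that insert selenocysteine, 1 fell and none rose (2 fell with the offset, and 1 rose without siIGF2BP2 replicate 1). After siIGF2BP3 none of the 18 selenoproteins was higher and 1 was lower. After Dox 2 were higher and none lower in sgIGF2BP2 cells (1 and 1 without Dox replicate 2), and 4 higher and 2 lower in sgAAVS1 cells.

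RNA-modifying enzymes other than TRUB1 had smaller changes. Of 16 pseudouridine synthases and their cofactors, 5 fell and 1 rose (37.5% called, near the 36.8% of all genes), with a median of −0.10 (6 and none without siIGF2BP2 replicate 3, 7 and none with the offset, and 2 rises without any single one of siIGF2BP2 replicates 1 and 2 and siControl replicate 4), and PUS7L (−0.41) followed TRUB1. Of 21 m6A writers, erasers and readers, 5 rose and 5 fell (23.8% each, beside 18.4% of all genes), all within −0.18 to 0.25. Without siIGF2BP2 replicate 1 or siControl replicate 4, 3 rose. The eraser ALKBH5 (−0.17) and the writer subunit RBM15B (−0.18) fell and the reader YTHDC2 (0.25) rose. The RNA interference machinery, which an siRNA uses, had 5 of 13 genes lower and 2 higher (1 higher without siIGF2BP2 replicate 2). That is 38.5% lower and 15.4% higher, beside 18.4% of all genes in each direction. AGO2, the Argonaute that cuts target mRNA, was at 362, 356, 352 and 354 CPM in siControl and at 267, 256, 228 and 265 CPM in siIGF2BP2 libraries (−0.49, SE 0.035, edgeR adjusted p = 5.30e-19). AGO1 (−0.38) and the microRNA processor DROSHA (−0.26) fell as well. After siIGF2BP3, which called 2.34% of all genes, none of these 13 was called, and AGO2 had a log2 fold change of 0.02. The difference between the pools for AGO2 was −0.51 (edgeR adjusted p = 5.34e-13).

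Translation and splicing genes followed. Of 35 initiation factors 13 fell (37.1%, beside 18.4% of all genes) and none rose (median −0.06). EIF1AX, which scans for the start codon, led them with 133, 133, 139 and 132 CPM against 96.0, 103, 97.2 and 96.3 CPM (−0.45). Of 32 SR and hnRNP splicing proteins 9 fell and 8 rose, and 5 fell and 8 rose with upper-quartile factors. PTBP3, a paralogue of the splicing repressor PTBP1, stood out with 139, 137, 135 and 132 CPM against 71.2, 65.6, 63.1 and 66.3 CPM (−1.03, SE 0.040, edgeR adjusted p = 4.75e-33), and it was not called after Dox in sgIGF2BP2 cells or siIGF2BP3 (−0.09 and −0.06, edgeR adjusted p = 0.0954 and 0.554). Of 43 genes of mRNA decay 5 fell (3 without siIGF2BP2 replicate 3) and 7 rose (27.9% called, under the 36.8% of all genes), among them the decapping enzyme DCP2 (−0.56), the deadenylase subunit PAN2 (0.55) and the nonsense-mediated decay factor UPF3B (0.36). DCP2 had a mean of 45.0 CPM in siControl and 30.6 CPM after siIGF2BP2, near the 31.4 CPM of the line's DMSO libraries. PAN2 and UPF3B lay after siIGF2BP2 above their DMSO means of 12.5 and 20.5 CPM.

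Mitochondrial ribosomal proteins, which translate the respiratory subunits encoded in mitochondria, were mostly lower where called, with 28 of 78 lower (35.9%) and 3 higher (10 with upper-quartile factors, and 5 and 6 without siIGF2BP2 replicate 1 and 2). MRPL15 fell from 92.0 ± 3.03 to 66.2 ± 1.79 CPM (−0.47) and MRPS5 from 69.3 ± 1.23 to 52.9 ± 3.96 CPM (−0.39). For 4 lists of many small and short transcripts the count depended on siIGF2BP2 replicate 3, the library whose deviation ran with transcript length. Cytosolic ribosomal proteins had 8 of 78 higher and 1 lower with it and 1 higher and 7 lower without it, and 6 higher and 16 lower with the offset for GC content and length. The rises of that list were 18 without siIGF2BP2 replicate 1, 5 without siControl replicate 2 and 16 with upper-quartile factors. Nuclear respiratory chain subunits had 19 of 75 higher and 11 lower with it and 6 higher and 15 lower without it, and 11 and 15 with the offset. Proteasome subunits had 3 of 43 higher and 9 lower with it and 2 higher and 17 lower without it, and 3 and 17 with the offset, and mitochondrial ribosomal proteins 1 higher and 38 lower without it. Without siControl replicate 1, the cytosolic ribosomal list had 4 higher and 2 lower and the respiratory list 11 higher and 9 lower. Of the respiratory subunits named by rule, NDUFA5 of complex I fell (−0.51), at 62.1 to 69.6 CPM in siControl and 44.0 to 50.1 CPM in siIGF2BP2 libraries. NDUFB1, also of complex I, rose (0.38), with replicate 3 at 34.3 CPM above the other 3 at 25.6 to 26.4 CPM. Of the 13 mRNAs encoded in mitochondria, 1 was higher (none without siIGF2BP2 replicate 1 or 3 or siControl replicate 1 or 2) and 2 lower, and their share of all counts was 8.25% to 8.94% in siControl and 8.43% to 8.69% in siIGF2BP2 libraries.

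Of 35 glycolysis and hypoxia-response genes 16 fell (45.7%, beside 18.4% of all genes) and 4 rose, with a median of −0.12. P4HA2, a prolyl hydroxylase of collagen, was at 60.7, 62.4, 59.1 and 60.1 CPM in siControl and at 33.2, 31.1, 37.8 and 37.0 CPM in siIGF2BP2 libraries (−0.79, SE 0.052, edgeR adjusted p = 7.70e-21). NDRG1, a hypoxia-induced gene (−0.73), SLC16A1, the lactate transporter MCT1 (−0.57), and HK2, the first enzyme of glycolysis, fell, while PFKL, a phosphofructokinase, rose (0.31). The summed levels of this list overlapped, at 15680 to 16150 CPM in siControl and 15360 to 17000 CPM in siIGF2BP2 libraries. In cholesterol synthesis 10 of 27 genes fell (37.0%) and 3 rose (11.1%), beside 18.4% of all genes in each direction. Besides INSIG1 these were led by MSMO1 (−0.54), SQLE (−0.38) and SC5D (−0.35), enzymes of the later steps, while SREBF1, a transcription factor of lipid synthesis, rose (0.28). MSMO1 had a mean of 54.1 CPM in siControl and 37.4 CPM after siIGF2BP2, near the 35.3 CPM of the line's DMSO libraries. INSIG1, SQLE and SC5D lay after siIGF2BP2 below their DMSO means of 34.9, 106 and 26.5 CPM. After siIGF2BP3 4 of the 27 were lower, where 1.4% of all genes were, and none was higher. SQLE and INSIG1 were among them (−0.20 and −0.22). The median of the list was −0.09 after siIGF2BP3 and −0.07 after siIGF2BP2. After Dox 2 were higher and 3 lower in sgIGF2BP2 cells, and 4 higher and 2 lower in sgAAVS1 cells.

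Of 37 lysosomal and V-ATPase genes 18 rose (48.6%) and 7 fell (18.9%), with a median of 0.10. Rises were not particular to siIGF2BP2. After Dox 14 of the 37 were higher and 1 lower in sgAAVS1 cells (median 0.09), where 7.25% of all genes were higher. In sgIGF2BP2 cells 8 were higher and none lower (median 0.07), where 10.0% of all genes were higher. After siIGF2BP3 none was higher and 1 was lower. NPC2, which carries cholesterol out of lysosomes, rose from 43.7 ± 2.25 to 59.6 ± 4.45 CPM (0.45), and TPP1, a lysosomal peptidase, rose too (0.32). Among the proton pump subunits, ATP6V0E1 fell (−0.27), with siIGF2BP2 replicate 3 at 136 CPM next to the lowest siControl library. The summed level of the list was 5167 to 5303 CPM in siControl and 5405 to 5799 CPM in siIGF2BP2 libraries. Without replicate 3 the counts were 17 higher and 5 lower.

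Of 40 genes of G2/M and mitosis, 17 rose (42.5%) and 6 fell (15.0%) after siIGF2BP2, beside 18.4% of all genes in each direction. After Dox none was higher and 31 were lower in sgIGF2BP2 cells, where 10.4% of all genes were lower. In sgAAVS1 cells none was higher and 7 were lower, where 8.68% of all genes were lower. Of 46 genes of G1/S and DNA replication, 10 rose and 7 fell after siIGF2BP2 (37.0% called, near the 36.8% of all genes), and 9 rose and 10 fell with the offset. After Dox 1 was higher and 36 lower in sgIGF2BP2 cells, and 1 higher and 18 lower in sgAAVS1 cells. The difference between the siIGF2BP2 effect and the Dox effect in sgIGF2BP2 cells was past the threshold for 31 of the G2/M and 39 of the G1/S genes. It was past the threshold for 26.1% of all genes. Within the lists single genes fell strongly. CCNE1, cyclin E1, was at 51.8, 53.2, 55.5 and 55.0 CPM in siControl and at 27.1, 28.9, 35.9 and 28.6 CPM in siIGF2BP2 libraries (−0.83, SE 0.056, edgeR adjusted p = 2.88e-20). CDC25A, a phosphatase that activates CDKs (−0.43), and ANLN, which scaffolds the cleavage furrow (−0.46), fell with ECT2 and CCND1. RRM2, a ribonucleotide reductase subunit (0.27), E2F8 (0.55), HMMR (0.68), DLGAP5 (0.29) and PTTG1, securin (0.28), rose.

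Genes activated by p53 gave 9 higher and 9 lower of 32 tested after siIGF2BP2 (28.1% each, beside 18.4% of all genes). After Dox they gave 30 higher and none lower in sgIGF2BP2 cells, where 10.0% of all genes were higher. In sgAAVS1 cells they gave 19 higher and 1 lower after Dox, where 7.25% of all genes were higher and 8.68% lower. CDKN1A, the CDK inhibitor p21, was at 278, 283, 269 and 274 CPM in siControl and at 204, 212, 222 and 212 CPM in siIGF2BP2 libraries, lower in all 4 (−0.38, SE 0.033, edgeR adjusted p = 2.51e-15). After Dox it was higher in sgIGF2BP2 cells (0.51, edgeR adjusted p = 1.03e-20) and in sgAAVS1 cells (0.18, edgeR adjusted p = 4.45e-05). FAS, a death receptor (−0.45), and ZMAT3 (−0.40) fell too, and DDB2, a DNA damage sensor, rose (0.35). Without siIGF2BP2 replicate 3 the counts were 5 higher and 9 lower, and without replicate 2 there were 5 higher. GDF15, a stress cytokine counted with p53 and with the integrated stress response, fell from 7.61 ± 0.929 to 5.78 ± 0.690 CPM (−0.42) and rose after Dox by 1.31 in sgIGF2BP2 and by 1.25 in sgAAVS1 cells.

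The unfolded protein response answers an excess of misfolded protein in the secretory pathway. After siIGF2BP2 4 of 35 of its genes rose and 10 fell (40% called, beside 36.8% of all genes), with a median of −0.03. The oxidoreductases PDIA6 (523 ± 6.42 to 443 ± 13.1 CPM, −0.24) and PDIA3 (−0.21) fell, and ATF6B, a paralogue of the sensor ATF6 (0.31), and EDEM2, which marks misfolded glycoproteins (0.24), rose. In the integrated stress response list, whose genes are induced through ATF4 and CHOP, 5 of 29 rose and 6 fell (37.9% called, near the 36.8% of all genes), with 3 and 7 without siIGF2BP2 replicate 3, 3 higher without siControl replicate 3, and 3 and 11 with the offset. TRIB3 (−0.45), ATF5 (−0.43) and the amino acid transporter SLC7A5 (−0.41) fell and PPP1R15A, which restarts translation, rose (0.23). Interferon response genes and RNA sensors had 9 of 28 higher (32.1%) and 2 lower (7.14%) with siIGF2BP2 against the non-targeting siRNA. Of all genes 18.4% were called in each direction. DDX60, a helicase of viral RNA sensing, went from 4.46 to 5.51 CPM in siControl to 6.17 to 7.97 CPM in siIGF2BP2 libraries (0.51) and SAMD9 rose by 0.39, while the exonuclease ISG20 fell (−0.30). Without siControl replicate 1 the list had 5 higher and 2 lower, and with the offset 10 and 4.

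Signalling and cytoskeletal lists gave the following. Among EGFR ligands and feedback genes of the MAPK pathway, which is active in RKO through mutant BRAF, 3 of 27 rose (1 without any single one of siIGF2BP2 replicates 2 and 4 and siControl replicates 2, 3 and 4) and 8 fell, among them IER3, MYC and DUSP5, a nuclear ERK phosphatase (−0.40). Of these 27 genes 40.7% were called, beside 36.8% of all genes. DUSP5 was higher after Dox in sgIGF2BP2 cells (0.60) and lower in sgAAVS1 cells (−0.20, edgeR adjusted p = 0.011). Of 16 Wnt feedback genes 3 fell (18.8%, near the 18.4% of all genes) and none rose. Without siIGF2BP2 replicate 3, 2 rose, and 1 rose with the offset, with upper-quartile factors or without siControl replicate 2. SOX9, a transcription factor of colon stem cells, was at the edge of detection with 37, 18, 23 and 38 counts in siControl and 7, 5, 4 and 13 counts in siIGF2BP2 libraries (−1.78 on the log2 scale, SE 0.319; edgeR adjusted p = 6.56e-06). NKD2, a Wnt inhibitor, fell by 0.48. SOX9 rose after siIGF2BP3 (0.94, edgeR adjusted p = 0.0438), and the difference between the pools was −2.72 (edgeR adjusted p = 7.91e-07). Of 22 NF-kB feedback genes and cytokines 7 fell (31.8%, beside 18.4% of all genes) and 1 rose (none without siIGF2BP2 replicate 3 or 4 or siControl replicate 1). Together 36.4% were called, near the 36.8% of all genes. The falls were led by IL11, at 12.4 to 15.4 CPM in siControl and 6.11 to 8.14 CPM in siIGF2BP2 libraries (−0.98), and BIRC3 (−0.35). In the BCL2 family 5 of 19 fell and 3 rose (42.1% called, beside 36.8% of all genes). There were 5 falls and 1 rise without siIGF2BP2 replicate 3, and 6 and none with the offset. MCL1 (−0.24), BCL2L1 (−0.21) and BAK1 (−0.29) were among those that fell.

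Microtubule-associated proteins and tubulins had 12 of 30 lower and 5 higher (3 with the offset). TUBB2A (−0.53) and TUBB2B (−0.44) fell, and MAP1A, MAPRE3, a plus-end binding protein (0.66), and STMN1, which destabilises microtubules (0.41), rose. Of 20 targets of SRF and YAP 7 rose and 4 fell. CALD1, caldesmon, was at 42.0, 41.0, 43.7 and 44.2 CPM in siControl and at 71.4, 70.0, 67.4 and 68.2 CPM in siIGF2BP2 libraries (0.70, SE 0.051, edgeR adjusted p = 9.02e-19), and TAGLN (0.43) and CYR61 (0.28) rose. CALD1 was also higher after Dox in sgIGF2BP2 cells (0.28) and after siIGF2BP3 (0.31), and its rise after siIGF2BP2 exceeded each (edgeR adjusted p of the differences = 9.46e-06 and 6.09e-05). It rose by 0.79 after Dox in sgAAVS1 cells. Integrins, laminins and collagens had 3 of 20 higher and 3 lower (15.0% each, near the 18.4% of all genes). The paired keratins of simple epithelia moved apart: KRT8 rose from 44.9 ± 2.36 to 65.6 ± 7.39 CPM (0.55) and KRT18 fell from 170 ± 1.01 to 120 ± 8.85 CPM (−0.49). These genes are annotated as overlapping on opposite strands, and whether the counting used strand is not given in the sources used here. The same limit applies to other genes named here with an annotated overlap, among them IGF2BP3 (MALSU1), SLC22A18 (SLC22A18AS), TMEM198 (CHPF), CCND1 (LTO1), RBM10 (NDUFB11), UNC5A (HK3), KIF24 (UBAP1), CUTA (PHF1), SELENOH (BTBD18), SELENOT (SERP1) and FAS (ACTA2). Of the other lineage markers, VIM, vimentin, rose (0.24), and CDX2, EPCAM and ZEB1 were not called (log2 fold changes −0.03, 0.05 and −0.05; edgeR adjusted p = 0.778, 0.631 and 0.425).

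The next question was how far siRNA and induced Cas9 against the same gene gave the same changes. Of the 2326 genes called after Dox, 1050 were also called after siIGF2BP2, which is 45.1% of the Dox calls (beside 36.8% of all genes called after siIGF2BP2) and 25% of the siIGF2BP2 calls. Of these, 682 changed in the same direction, 331 higher and 351 lower in both, and 368 changed in opposite directions. Across the 11428 genes the log2 fold changes had r = 0.13 (rho 0.14), given as a description, since genes are not independent. Without Dox replicate 2, 2065 genes were called after Dox, of which 1817 were among the 2326, and 928 of the 2065 were called after siIGF2BP2 (44.9%), 588 in the same and 340 in the opposite direction. Dox in sgAAVS1 cells, where IGF2BP2 was not called, gave 1820 calls, of which 839 were called after siIGF2BP2 (46.1%), 412 in the same and 427 in opposite directions. Of the 797 genes whose Dox effect differed between sgIGF2BP2 and sgAAVS1 cells, 419 were called after siIGF2BP2 (52.6%), 267 in the direction of that difference and 152 against it. Of the 199 genes that rose at least 1.5-fold after siIGF2BP2, 35 (17.6%) were higher after Dox in sgIGF2BP2 cells and 2 lower, where 10.0% of all genes were higher. In sgAAVS1 cells 12 of the 199 (6.03%) were higher, where 7.25% of all genes were. Of the 122 that fell at least 1.5-fold, IGF2BP2 left out, 11 (9.02%) were lower after Dox in sgIGF2BP2 cells and 14 (11.5%) higher, where 10.4% of all genes were lower. In sgAAVS1 cells 11 (9.02%) were lower and 15 (12.3%) higher, where 8.68% of all genes were lower. The difference between the effects was called for 114 of those 122 falls (93.4%) and for 82 of the 199 rises (41.2%), where 26.1% of all genes were. Both sets were picked by their siIGF2BP2 effect, which is part of the difference, so a higher share was built in. The median level of the genes that rose at least 1.5-fold was 2.92 CPM and of those that fell 22.7 CPM, and the part of level in this contrast was not tested.

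Some genes moved the same way after siIGF2BP2 and after Dox in sgIGF2BP2 cells, with no overlap between groups in either, and their values after Dox in sgAAVS1 cells are given beside them. HMGA1 fell in all 3 comparisons (above). ECT2 and CAND1, a regulator of cullin ubiquitin ligases, fell in both sgIGF2BP2 comparisons and were not called in sgAAVS1 cells (0.02 and 0.01, edgeR adjusted p = 0.818 and 0.912). CAND1 was at 280, 266, 280 and 270 CPM in siControl and at 150, 149, 147 and 151 CPM in siIGF2BP2 libraries (−0.88), and fell by 0.22 after Dox. RBM10, a splicing factor, fell by 0.77 after siIGF2BP2, by 0.10 after Dox in sgIGF2BP2 cells and by 0.18 in sgAAVS1 cells, and without Dox replicate 2 its Dox effect was not called (−0.09, edgeR adjusted p = 0.116). UNC5A, a netrin receptor, rose by 0.83 here and by 0.43 after Dox, and fell by 0.64 after Dox in sgAAVS1 cells. CFAP69, the cilium gene CCDC113 (0.76 and 0.41) and ACCS (0.76 and 0.49) rose in both and were not called in sgAAVS1 cells (0.26, 0.23 and 0.13, edgeR adjusted p = 0.200, 0.316 and 0.596). The Dox effect did not differ past the threshold between the lines for these last 3 genes (edgeR adjusted p = 0.434, 0.676 and 0.284). For UNC5A, CFAP69, CCDC113 and ACCS the 2 effects did not differ past the threshold (edgeR adjusted p of the difference = 0.120, 0.208, 0.197 and 0.274), with 1 SE of the difference at 0.18 for ACCS.

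Other genes went in opposite directions after siIGF2BP2 and after Dox in sgIGF2BP2 cells. They were picked for this, so the p-value of a difference between these effects is no separate support. IL11, a cytokine of the IL-6 family, fell here and rose after Dox (0.72, difference −1.70, edgeR adjusted p = 6.72e-17), and it rose as well after Dox in sgAAVS1 cells (0.77, edgeR adjusted p = 2.26e-11). PDP1, a phosphatase that activates pyruvate dehydrogenase, was at 49.6 to 54.0 CPM in siControl and 27.7 to 34.4 CPM in siIGF2BP2 libraries (−0.75) and rose by 0.69 after Dox, where it fell by 0.34 in sgAAVS1 cells (edgeR adjusted p of the difference between the Dox effects = 5.38e-13). NT5E (CD73), which makes adenosine outside the cell, fell by 0.78 and rose by 0.70, and was not called in sgAAVS1 cells (0.31, edgeR adjusted p = 0.0594). ELL2, an elongation factor of RNA polymerase II, fell by 0.86 and rose by 0.27, and NDRG1 fell by 0.73 and rose by 0.30. Both also rose after Dox in sgAAVS1 cells (0.20 and 0.42). KIF24, a kinesin that restrains cilium formation (0.71 and −0.36), and the exonuclease REXO5 (0.66 and −0.28) rose here and fell after Dox, and were not called in sgAAVS1 cells (0.12 and −0.05, edgeR adjusted p = 0.300 and 0.739).

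The siIGF2BP3 pool, given at the same dose and time in the other line, served as the nearest comparison for siRNA treatment. Of its 267 calls, 146 were also called after siIGF2BP2, which is 54.7% of the siIGF2BP3 calls (beside 36.8% of all genes) and 3.47% of the siIGF2BP2 calls. In 125 of the 146 the direction was the same, 48 higher and 77 lower, and in 21 it was opposite. Genes that fell after both pools included ERLIN2, of the endoplasmic reticulum (−0.85 and −0.23), ERO1A, which oxidises protein disulfide isomerases (−0.73 and −0.14), and the ubiquitin ligase UBE3C (−0.90 and −0.12). UBE3C was at 199 to 207 CPM in siControl and at 106 to 115 CPM in siIGF2BP2 libraries. In all 3 genes, which were picked by the size of their siIGF2BP2 change, the fall was larger after siIGF2BP2 (edgeR adjusted p of the difference = 2.93e-11, 1.94e-13 and 1.23e-22). In the opposite direction, MMP14, a membrane matrix metalloproteinase, fell here (179 ± 7.61 to 134 ± 7.55 CPM, −0.42) and rose after siIGF2BP3 (0.32). CAVIN1, of caveolae, fell by 0.27 and rose by 0.17. CUTA (0.53 and −0.26) and the ubiquitin ligase RNF145 (0.32 and −0.17) rose here and fell after siIGF2BP3.

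Called genes also differed in the make-up of their transcripts, taken as the longest protein-coding transcript of each gene in GENCODE. Genes that rose had a median GC content of 53.8% and genes that fell 46.0%, against 48.4% for genes not called. The median 3′ UTR length was 926 bases for genes that rose, 1770 for genes that fell and 1272 for genes not called. In the lowest of 5 equal classes by GC content 298 rose and 532 fell, and in the highest 629 rose and 263 fell. Across genes the log2 fold change correlated with GC content (r = 0.17) and with the logarithm of 3′ UTR length (r = −0.17) and of level (r = −0.21). These are weak descriptions over genes that share libraries, scaling and depth. After an offset for GC content and length was fitted in each library, 4603 genes were called, 1947 higher and 2656 lower, and 3669 of these were among the 4202. The part of library composition in these trends was not tested further.

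**Figure D3:**
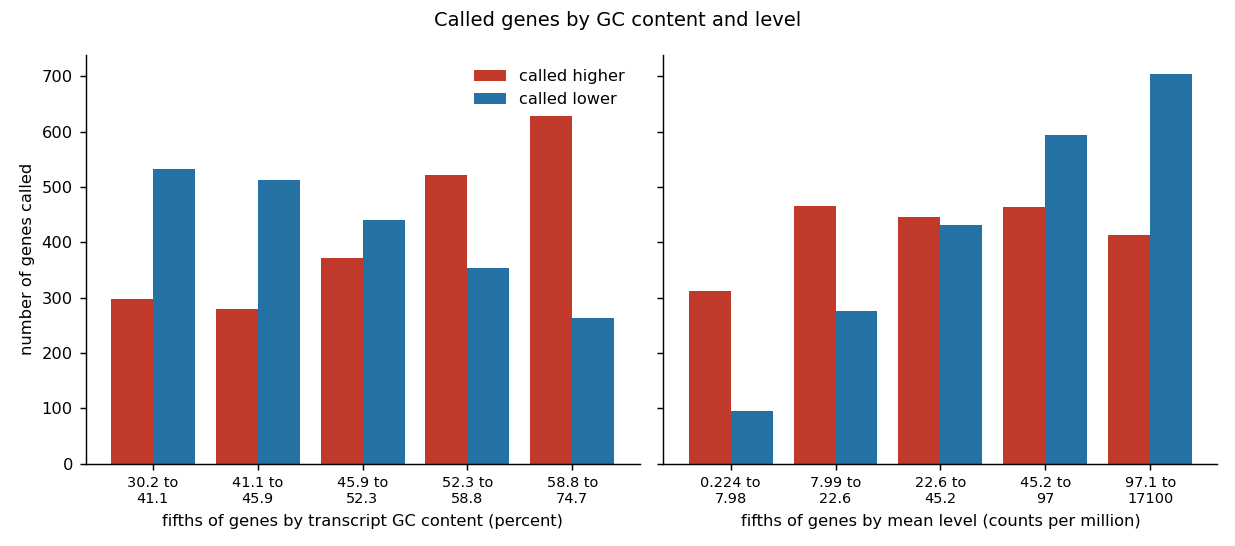
Number of genes called higher (red) and lower (blue) after siIGF2BP2 in 5 equal classes of the tested genes by GC content of the longest coding transcript (left, percent) and by mean level (right, CPM). Rises outnumber falls at high GC content and at low level, and falls outnumber rises at low GC content and at high level.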

How the data were processed

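Read counts per gene, as deposited by the authors without normalisation, were taken from a single table with a column for each of the 40 libraries. The submitters' processing notes name bcl2fastq 2.20.0.422, STAR 2.7.5c and hg38, and the counting tool and annotation are not given in the sources used here. Groups came from the labels, which describe 1 well per condition in quadruplicate. Of 19962 genes, 11428 passed edgeR's filter on low counts by group, and these hold 99.976% of all counts. Counts of all 40 libraries in 10 groups were scaled by the trimmed mean of M-values and fitted with edgeR 4.0.16 (R 4.3.3) by its quasi-likelihood test with 30 residual degrees of freedom, and p-values were adjusted by Benjamini-Hochberg over all genes tested. A gene was called at an adjusted p under 0.05. The biological coefficient of variation was 3.79%. The fit was tested on simulated data for siIGF2BP2 against siControl over 11428 genes with 50 changed genes per size, where over 10 draws it recovered 50% to 64% of 1.2-fold, 78% to 94% of 1.5-fold and 92% to 100% of 2-fold changes, and 1.14% to 8.02% of its calls were false. With 200 changed genes in all, it held far fewer changes than the 4202 calls in the data, so these rates may not carry over.

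Symbols, coordinates, GC content and lengths came from GENCODE release 29 (GRCh38), which named 19847 genes.

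Named genes were the 15 largest rises and falls among called genes whose groups did not overlap and whose mean log2 CPM reached 2, the IGF2BP family, members of the gene lists with the largest called changes (all members of lists of up to 20), genes called in the same or the opposite direction after Dox or siIGF2BP3, neighbours of IGF2BP2, and markers. Values of some genes that this rule covers are not reported here. The libraries, the gene lists and this rule were chosen with earlier results of these data known. Lists are described by counts and medians, with no test of their own. Alternatives were other size factors, filters and tools (DESeq2 1.42.0, and voom of limma 3.58.1), a fit of the compared groups alone, a replicate block, a test against a 1.2-fold change, thinned counts, an offset for GC content and length, and leaving out each of the 8 libraries. Leaving out sgIGF2BP2 Dox replicate 2 was added after seeing the data, as was the comparison with Dox in sgAAVS1 cells, from the same fit. The new and old RNA that s4U labelling separates was not analysed here.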

Additional observations from a re-analysis of the deposited data

Results flagged for a closer look

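Among 342 groups of 4 libraries, 1 library stood far from the other 3 by Dixon's criterion in 16 (4.68%), which is close to the rate that the criterion gives by chance. That rate says nothing on their spread over libraries, which was uneven, since most of the 16 were in siIGF2BP2 replicate 3. In siIGF2BP2 replicate 3, the library described above as standing apart, CCND1 was highest at 143 CPM (others 135 to 136), GPX1 at 256 CPM (230 to 233), PDIA6 at 463 CPM (436 to 439), NDUFB1 at 34.3 CPM (25.6 to 26.4), ATP6V0E1 at 136 CPM (111 to 114), TUBB2A at 24.8 CPM (21.4 to 21.9), KRT8 at 76.5 CPM (60.3 to 62.7), BAX at 195 CPM (162 to 164) and TP53I3 at 25.4 CPM (18.1 to 19.3), and SREBF1 was lowest at 196 CPM (others 208). In other siIGF2BP2 libraries, TRUB1 was highest in replicate 4 at 9.35 CPM (8.55 to 8.62) and EIF1AX in replicate 2 at 103 CPM (96.0 to 97.2). In siControl replicate 1, IFI6, an interferon-induced gene, was lowest at 1.84 CPM (3.59 to 3.69). In siControl replicate 4, CTXN1 was highest at 81.7 CPM (72.1 to 73.5) and E2F8 at 15.5 CPM (13.8 to 14), and GSR was lowest at 123 CPM (134 to 136). Without siIGF2BP2 replicate 3, BAX and TP53I3, both p53 targets, lost their call (log2 fold changes 0.07 and 0.20), and the other 14 genes kept theirs. IFI6 lost its call without siControl replicate 1 (0.37, edgeR adjusted p = 0.135).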

How the results depend on the processing

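Of 171 genes examined singly, 165 were called and 93 of these kept their call in each of the 20 alternatives that tested them. The filter at a mean of at least 5 CPM tested 153 of the 171. In the test against a 1.2-fold change 72 lost it. Of these, 14 also lost it elsewhere: TGFA and DICER1 (in 9 and 8 alternatives in all), METTL14 (7), GCLM (5), DKC1, FOXO3 and MRPS33 (4 each), BAX, CTGF, IFI6, PSMB9 and TLR3 (3 each), and BAD and TP53I3 (2 each). The naming rule covers these 14, which are counted in their lists and given no value in the results above. Without siControl replicate 1, 8 of them lost their call, and without siIGF2BP2 replicate 3, 6 did. None of the 165 called genes was called in the opposite direction in an alternative. This does not extend to the list counts. For some lists the balance of rises and falls turned over, among them cytosolic ribosomal proteins and nuclear respiratory chain subunits without siIGF2BP2 replicate 3 (above).

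Against a change of at least 1.2-fold, 512 genes were called for siIGF2BP2 against siControl, 273 for the difference from siIGF2BP3 and 558 for the difference from Dox. At a mean of at least 5 CPM, 24 genes changed at least 2-fold, in place of 76. Leaving out 1 of the 8 libraries gave 3653 to 3939 calls, 74 to 86 genes changed at least 2-fold, 1939 to 2098 calls for the difference from siIGF2BP3, 2745 to 2907 for the difference from Dox, and an IGF2BP2 log2 fold change of −1.87 to −1.82. Without sgIGF2BP2 Dox replicate 2, an alternative chosen after seeing the data, these were 4289, 77, 2231, 2967 and −1.84, and none of the 171 changed its call. Values of replicates with the same number did not deviate together (r of −0.064 to 0.050 over 9973 genes), so the numbers were not taken as pairs. With the replicate block 4029 genes were called, 3975 of them among the 4202, and none of the 171 changed its call.

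Depth limits genes of low level: in the lowest of 5 equal classes by level 17.8% were called. Simulated 1.2-fold changes were recovered in 58.2% of cases on average (50% to 64% over 10 draws), so a gene not called may have changed by that much. The simulation changed 200 genes, where 4202 were called in the data, so the rates in the data may differ.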

Other observations

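Chromosomes differed in the balance of calls. On chromosome 19, 866 genes were tested, of which 221 rose (25.5%) and 89 fell (10.3%), where 18.4% of all genes tested were called in each direction, with a median log2 fold change of 0.06. Chromosome 11 had 154 higher (23%) and 95 lower (14.2%) of 670. Chromosome 5 had 63 higher (12.3%) and 106 lower (20.6%, near the share of all genes) of 514. Chromosome 19 is known as gene-dense and rich in GC, and its balance was not tested apart from the trend with GC content.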
